A study of Mus musculus with 5 samples.

Results

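The Snail, Twist, Zeb and Prrx factors were followed through single-cell RNA-seq of mouse synovial sarcoma (SyS). They are 9 genes, taken by symbol from the 32286 features counted in each library, namely *Snai1*, *Snai2* and *Snai3*, *Twist1* and *Twist2*, *Zeb1* and *Zeb2*, and *Prrx1* and *Prrx2*. All 9 were found under these symbols. In GENCODE M21 (build GRCm38) the more abundant members lie at chr12:33957671-33959829 (*Twist1*), chr1:163245119-163313710 (*Prrx1*) and chr2:44983632-45117395 (*Zeb2*), and the 3′-end reads were counted per gene. Their levels were compared across cell classes, across tumor labels, and between tumor cells with and without *Epcam*, the gene of an epithelial surface adhesion protein.

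These proteins bind DNA and are best known for the epithelial to mesenchymal transition, in which cells lose epithelial junctions and gain a migratory mesenchymal state. Snail and Zeb proteins are zinc finger repressors that bind E-box motifs in the promoters of epithelial genes such as *Cdh1*, which encodes E-cadherin. Twist proteins are basic helix-loop-helix factors that pair with E proteins, and Prrx proteins are paired-type homeodomain factors of limb and craniofacial mesenchyme. SyS is a sarcoma in which some tumors make epithelial glands beside spindle cells, so both sides of this transition can be present in a single tumor.

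Every tumor came from an *hSS2* mouse, in which the *SS18::SSX2* fusion is expressed from the *Rosa26* locus after TATCre protein was injected into the limb in early postnatal life, and was harvested at morbidity. TATCre enters whichever limb cells take it up, so the cell of origin was not fixed by a promoter, and all groups carry the fusion, with no fusion-free group. The labels gave 2 biphasic (BP) tumors, 1 monophasic (MP) tumor, 1 tumor of both kinds (MP+BP) and 1 poorly differentiated and monophasic tumor (PD+MP). The labels of both BP tumors begin with the same number, so they may come from 1 animal, and p-values then measure only the spread between these samples.

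The promoters of many listed epithelial genes held the sequence that Snail and Zeb factors bind. The hexamer CAGGTG, which reads CACCTG on the other strand, was searched in RefSeq promoter windows (build GRCm38.p6, 250 bases before to 50 after each start). It was present for 11 of 13 matched genes of a list of 20 epithelial genes, of which *Cdh1* was not matched. Over all 27025 genes with a window, 22.6% held it. By contrast, 1 of 10 matched genes of a list of 20 mesenchymal genes held it (*Sparc*), as did 1 of 6 matched members (*Snai1*). Windows are shown for *Epcam* (chr17:87635729-87636028, plus strand), the polarity gene *Crb3* (chr17:57061951-57062250, plus strand), the trafficking gene *Rab25* (chr3:88548230-88548529, minus strand) and *Snai1* (chr2:167537945-167538244, plus strand). *Epcam* and *Rab25* are named again below, and *Crb3*, of the same epithelial list, was picked after its values were seen. Among the 6 matched members only *Snai1* held the hexamer. No window of *Snai2*, *Snai3* or *Zeb1* entered the counts, so whether their promoters hold it was not tested. Each is written 5′ to 3′ along the gene, with the hexamer in capitals.
Epcam: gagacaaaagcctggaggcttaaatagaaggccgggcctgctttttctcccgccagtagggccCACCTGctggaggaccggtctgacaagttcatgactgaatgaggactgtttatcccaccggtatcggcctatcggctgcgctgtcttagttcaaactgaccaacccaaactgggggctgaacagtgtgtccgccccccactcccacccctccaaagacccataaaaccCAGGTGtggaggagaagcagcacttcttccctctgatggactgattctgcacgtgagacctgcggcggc
Crb3: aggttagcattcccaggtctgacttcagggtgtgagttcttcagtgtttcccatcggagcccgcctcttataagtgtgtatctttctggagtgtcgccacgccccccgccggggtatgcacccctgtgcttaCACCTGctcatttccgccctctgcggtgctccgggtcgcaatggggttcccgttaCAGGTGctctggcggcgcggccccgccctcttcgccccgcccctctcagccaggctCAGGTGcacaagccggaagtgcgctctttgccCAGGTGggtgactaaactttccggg
Rab25: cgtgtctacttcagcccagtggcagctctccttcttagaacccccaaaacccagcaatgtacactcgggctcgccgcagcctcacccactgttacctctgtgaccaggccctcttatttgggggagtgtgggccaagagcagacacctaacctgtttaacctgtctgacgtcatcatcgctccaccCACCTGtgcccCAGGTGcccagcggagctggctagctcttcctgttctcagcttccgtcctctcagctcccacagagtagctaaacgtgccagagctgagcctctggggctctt
Snai1: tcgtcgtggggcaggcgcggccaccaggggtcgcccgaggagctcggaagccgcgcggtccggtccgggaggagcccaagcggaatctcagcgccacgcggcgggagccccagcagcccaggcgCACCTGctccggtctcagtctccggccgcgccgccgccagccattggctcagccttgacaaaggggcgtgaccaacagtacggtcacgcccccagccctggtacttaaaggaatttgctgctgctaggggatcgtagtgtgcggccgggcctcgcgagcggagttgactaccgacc
The *Crb3* window held 4 matches, those of *Epcam* and *Rab25* held 2 each, and that of *Snai1* held 1. A match describes the letters only, and binding was not measured.

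The libraries held 8931 to 11565 called cells and 89996321 to 118649103 unique molecular identifiers (UMIs, 1 per captured RNA molecule). After filters, 39559 cells formed 31 clusters, of which 24133 cells in 15 clusters were SyS-like by their markers. Pericyte-like cells numbered 1257, fibroblast-like cells 142, endothelial-like cells 2428 and macrophage-like cells 2669, and 7816 cells stayed unnamed. None of the 9 members was used for clustering. An EGFP entry of the reference, whose source the study does not explain and which was not used for naming, stood at 34.8 CPM, the gene's UMIs scaled to a common total of UMIs, in SyS-like cells, against 2.77 in pericyte-like, 10.5 in fibroblast-like and 1.11 in endothelial-like cells. Pericyte-like and fibroblast-like cells together are called stromal. Of the 142 fibroblast-like cells 122 came from PD+MP, so stroma was mostly pericyte-like in the other 4 tumors.

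As a share of UMIs, 5 of the 9 factors were much lower in SyS-like cells than in the stroma of the same tumors, while *Twist1* did not differ at the threshold. All levels here are shares of a class's UMIs, not amounts per cell. SyS-like cells had the higher median depth in every tumor. *Snai1*, *Snai2*, *Zeb1*, *Zeb2* and *Prrx1* were lower in SyS-like cells in 5 of 5 tumors. *Twist1*, *Twist2*, *Prrx2* and *Snai3* did not pass the test. Sums of raw counts per tumor and class were compared with edgeR's quasi-likelihood test, with the tumor as a block (n = 5 pairs) and a Benjamini-Hochberg adjusted p under 0.05 as the threshold. Over all 20089 genes tested, 12.1% were called lower and 15% higher, and the median change was 0.17 on the log2 scale. Of the called genes 55.2% were higher, and 69.6% without scaling, which moved that median to 0.39 and reversed no member. DESeq2 gave 47.3% higher and a median of 0.06.

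**Figure D1:**
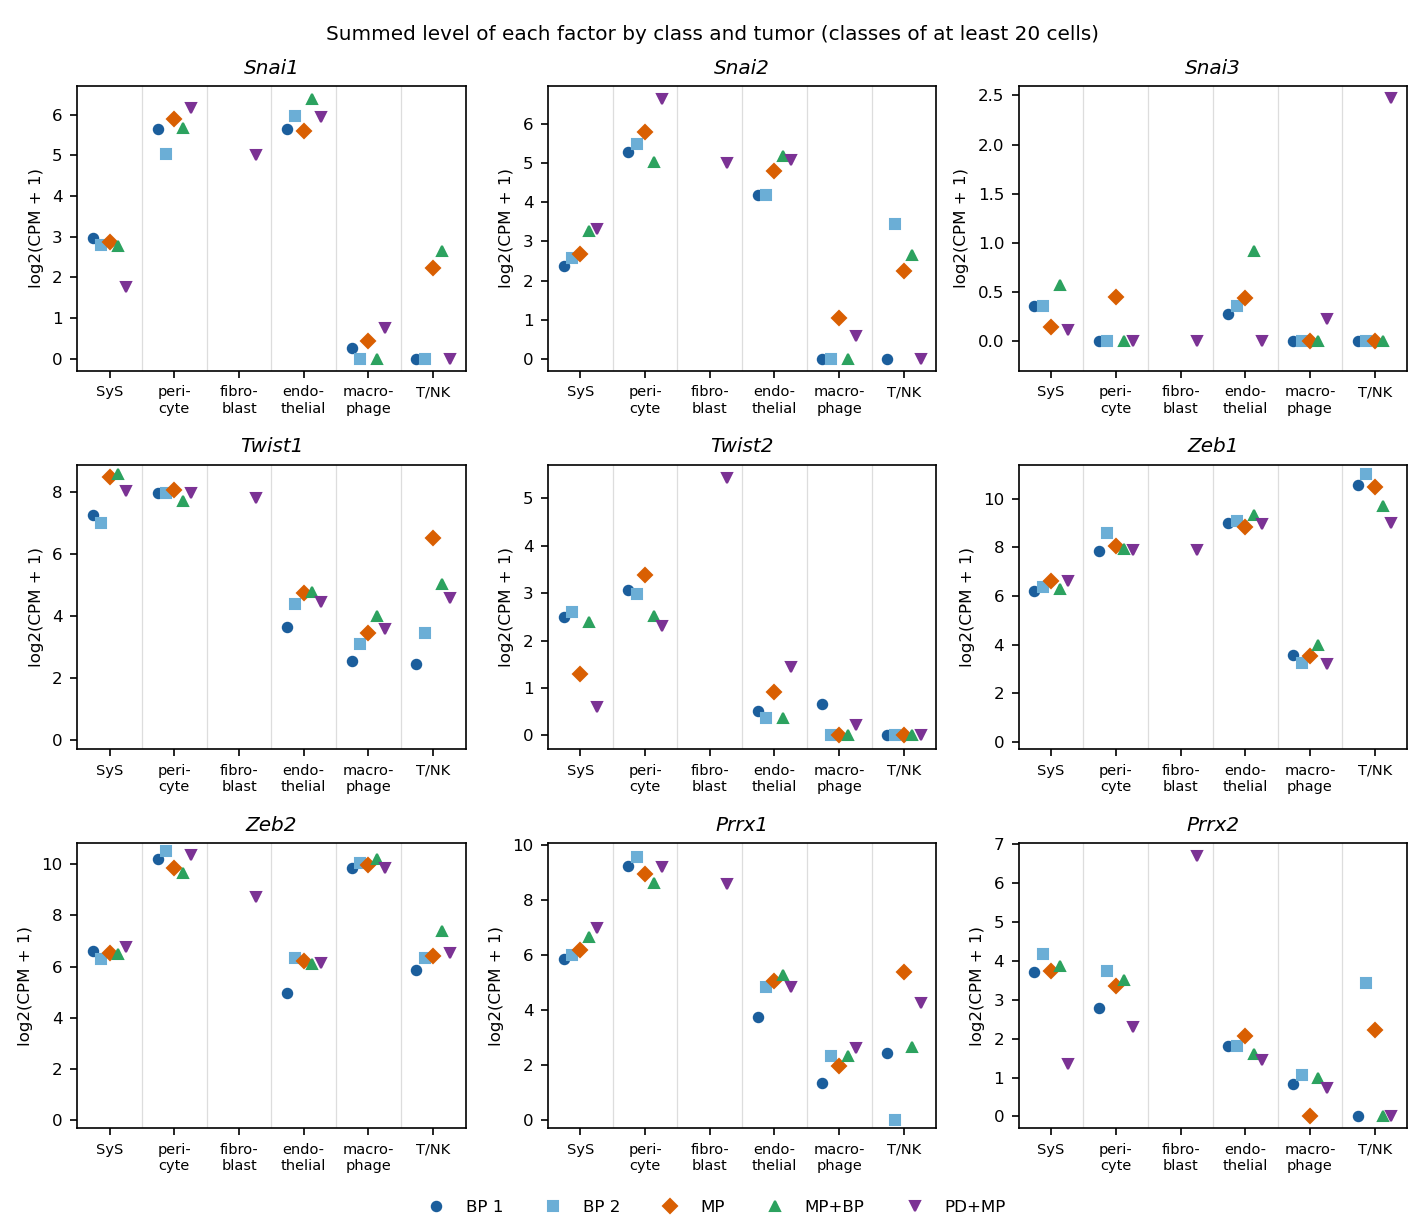
Level of each factor as log2(CPM + 1) in summed cells, by class (x axis) and tumor (point shape and color), for classes of at least 20 cells. *Twist1* in SyS-like cells sits beside stroma, whereas the *Snai1* and *Snai2* points of SyS-like cells sit between the stromal and the macrophage-like ones and *Zeb1* is highest in T/NK-like cells.

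*Snai1*, the founding Snail repressor, stood at 6.86, 5.96, 6.34, 5.75 and 2.40 CPM in SyS-like cells of BP 1, BP 2, MP, MP+BP and PD+MP. In stroma of the same tumors it stood at 51.2, 31.6, 58.2, 51.0 and 38.2 CPM. The ranges did not overlap, and PD+MP was the lowest among SyS-like values. The change was -3.36 on the log2 scale (SE 0.26, adjusted p = 3.34e-05). *Snai2*, the Slug repressor of neural crest and mesenchyme, behaved alike, with a change of -2.98 (SE 0.28, adjusted p = 9.67e-05). Its SyS-like values of 4.13, 4.95, 5.42, 8.55 and 9.02 CPM lay below all stromal values, which ran from 30.8 to 55.0 CPM. *Snai3*, the least studied Snail gene, was close to absent everywhere, with 83 UMIs over all 24133 SyS-like cells (0.244 CPM). Stroma held 1 *Snai3* UMI in all, so no difference was detectable at this depth.

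*Twist1*, a limb bud and cranial mesenchyme factor, was the most abundant member in SyS-like cells. It stood at 150, 126, 351, 376 and 259 CPM in SyS-like cells of BP 1, BP 2, MP, MP+BP and PD+MP, and at 283, 248, 265, 222 and 224 CPM in their stroma. Both BP tumors were below their stroma and the other 3 were above, and the ranges overlapped. The change was -0.32 (SE 0.27, adjusted p = 0.413). With each cell thinned to 2000 UMIs, 37.4% of SyS-like cells (exact 95% binomial interval 36.8 to 38.0, 23202 of 24133 cells deep enough) and 35.9% of pericyte-like cells (33.1 to 38.8, 1106 of 1257 cells) kept a *Twist1* UMI, against 2.07% of macrophage-like cells, a class that should lack it. Unthinned shares were 77.6%, 57.7% and 4.83% at median depths of 10028, 4058 and 5875 UMIs per cell. These intervals cover counting error only.

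*Twist2*, which also restrains early osteoblast programs, was scarce in SyS-like cells. Its levels there were 4.67, 5.07, 1.45, 4.23 and 0.511 CPM in BP 1, BP 2, MP, MP+BP and PD+MP. Stroma held 7.51, 6.88, 9.46, 4.40 and 35.3 CPM, so every tumor was lower in SyS-like cells, most widely in PD+MP and MP and least in MP+BP. The change was -2.18 (SE 0.88, adjusted p = 0.0984) and did not pass. It was called in 4 of 16 alternatives, at -2.05 by DESeq2 (adjusted p = 0.0304), -2.64 with at least 1500 genes per cell (0.0475), -2.33 without the tumor as a block (0.0267) and -1.43 with pericyte-like cells alone (0.0352). Fibroblast-like cells held 36.8 CPM of *Twist2* over all tumors and pericyte-like cells 7.66 CPM.

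The Zeb factors, large zinc finger and homeodomain repressors, split the classes differently. *Zeb2* stood at 96.0, 78.2, 92.6, 89.9 and 109 CPM in SyS-like cells and at 1130, 1480, 921, 767 and 584 CPM in stroma of BP 1, BP 2, MP, MP+BP and PD+MP. Every stromal value was above every SyS-like value, and the change was -3.54 (SE 0.26, adjusted p = 2.56e-05), the lowest of the 9. *Zeb1* stood at 72.4, 82.9, 97.3, 78.4 and 97.2 CPM in SyS-like cells against 233, 382, 266, 244 and 238 CPM in stroma. These ranges did not overlap either, with a change of -1.87 (SE 0.17, adjusted p = 7.38e-05).

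*Prrx1*, a mesenchymal factor of limb bud and fibroblasts, stood at 56.6, 63.7, 71.0, 98.7 and 126 CPM in SyS-like cells of BP 1, BP 2, MP, MP+BP and PD+MP. Stroma held 629, 765, 487, 407 and 423 CPM, above every SyS-like value. The change was -2.94 (SE 0.30, adjusted p = 0.00016). *Prrx2*, its paralog, held 12.2, 17.0, 12.4, 13.6 and 1.53 CPM in SyS-like cells and 12.3, 12.4, 9.10, 12.3 and 83.7 CPM in stroma. In 4 tumors the pair of values was close, and in PD+MP, where stroma was mostly fibroblast-like, SyS-like cells were far below. The change was -0.84 (SE 0.87, adjusted p = 0.509), and it was 0.03 without PD+MP and 0.27 with pericyte-like cells alone.

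Against endothelial-like cells the members went in both directions. *Twist1* (3.32, SE 0.20), *Twist2* (2.29, SE 0.63), *Prrx2* (2.09, SE 0.30) and *Prrx1* (1.39, SE 0.21) were higher in SyS-like cells on the log2 scale, and *Snai1* (-3.67, SE 0.25), *Zeb1* (-2.81, SE 0.17) and *Snai2* (-2.21, SE 0.20) were lower. Adjusted p-values of these 7 genes in the edgeR test ran from 5.26e-07 to 0.0121, where 30.4% of 20062 genes were called higher and 22.1% lower and the median change was 0.20 (0.41 without scaling). *Snai1* stood at 49.2, 61.4, 47.6, 82.5 and 60.1 CPM in endothelial-like cells of BP 1, BP 2, MP, MP+BP and PD+MP, and *Zeb1* at 506, 542, 463, 640 and 491 CPM. All of these values were above the SyS-like ones. *Twist2* lost its call without BP 1 (1.97, adjusted p = 0.062), without BP 2 (1.88, adjusted p = 0.0517) and with doublets kept (1.18, adjusted p = 0.0509). *Zeb2* did not pass (0.39, SE 0.23, adjusted p = 0.173), nor did *Snai3* (-0.81, SE 0.62, adjusted p = 0.296). The *Twist1* values of 11.5 to 25.9 CPM in endothelial-like cells were not far from the 4.79 to 14.9 CPM of macrophage-like cells, the level that free RNA could give, which was not tested.

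Against macrophage-like cells, a blood-derived class, *Zeb2* was lower in SyS-like cells and the other 7 of 8 tested members were higher. The background here was wide, with 35.2% of 20117 genes called higher and 23.2% called lower (60.3% of calls higher, 76.1% without scaling), and a median change of 0.34 (0.83 without scaling). *Twist1* (4.20, SE 0.19) and *Prrx1* (4.12, SE 0.21) had the largest changes on the log2 scale, followed by *Snai2* (3.77, SE 0.60), *Snai1* (3.40, SE 0.61), *Prrx2* (3.20, SE 0.53), *Twist2* (3.19, SE 0.71) and *Zeb1* (2.56, SE 0.20), with adjusted p-values from 1.05e-09 to 0.00177. *Zeb2* reached 933, 1060, 989, 1170 and 916 CPM in macrophage-like cells of BP 1, BP 2, MP, MP+BP and PD+MP, with a change of -3.93 (SE 0.18, adjusted p = 8.07e-10). *Snai3* fell to the filter on low counts. Macrophage-like cells held 6 UMIs each of *Snai1* and *Snai2* and 4 of *Twist2* over 2669 cells, so the size of these changes rests on few molecules. All 8 calls held in every alternative, but with doublets kept the changes of the 7 higher members were 1.43 to 2.01, with *Twist1* at 2.01 and *Prrx1* at 1.97.

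The order of the classes differed between factors. Among 5 classes, mean *Zeb1* fell from 1275 ± 607 CPM in T/NK-like cells to 528 ± 68.5 in endothelial-like, 272 ± 63.2 in pericyte-like, 85.7 ± 11.3 in SyS-like and 10.8 ± 2.62 CPM in macrophage-like cells (SD, n = 5 tumors each). T/NK-like and endothelial-like ranges overlapped, whereas pericyte-like values (232 to 382 CPM) lay below the endothelial-like ones (463 to 640 CPM) and above the SyS-like ones (72.4 to 97.3 CPM). Dendritic-like cells, left out of this order, ran from 114 to 297 CPM and overlapped the pericyte-like range. Among 4 classes, mean *Zeb2* was 1139 ± 278 CPM in pericyte-like, 1014 ± 104 in macrophage-like, 93.2 ± 11.3 in SyS-like and 64.7 ± 19.6 CPM in endothelial-like cells (SD, n = 5). Within these 4 classes neighbors overlapped at both ends, with the wide gap between macrophage-like and SyS-like cells. Dendritic-like cells, left out of that order, lay inside the gap at 119 to 254 CPM (n = 5). The T/NK-like range (58.0 to 169 CPM, n = 5) overlapped the SyS-like one. Mean *Prrx1* was 567 ± 139 CPM in pericyte-like, 83.3 ± 28.9 in SyS-like, 27.4 ± 9.36 in endothelial-like and 3.50 ± 1.38 CPM in macrophage-like cells (SD, n = 5), and none of these 4 ranges overlapped. The T/NK-like range, 0 to 40.7 CPM, overlapped the endothelial-like and macrophage-like ones.

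**Figure D2:**
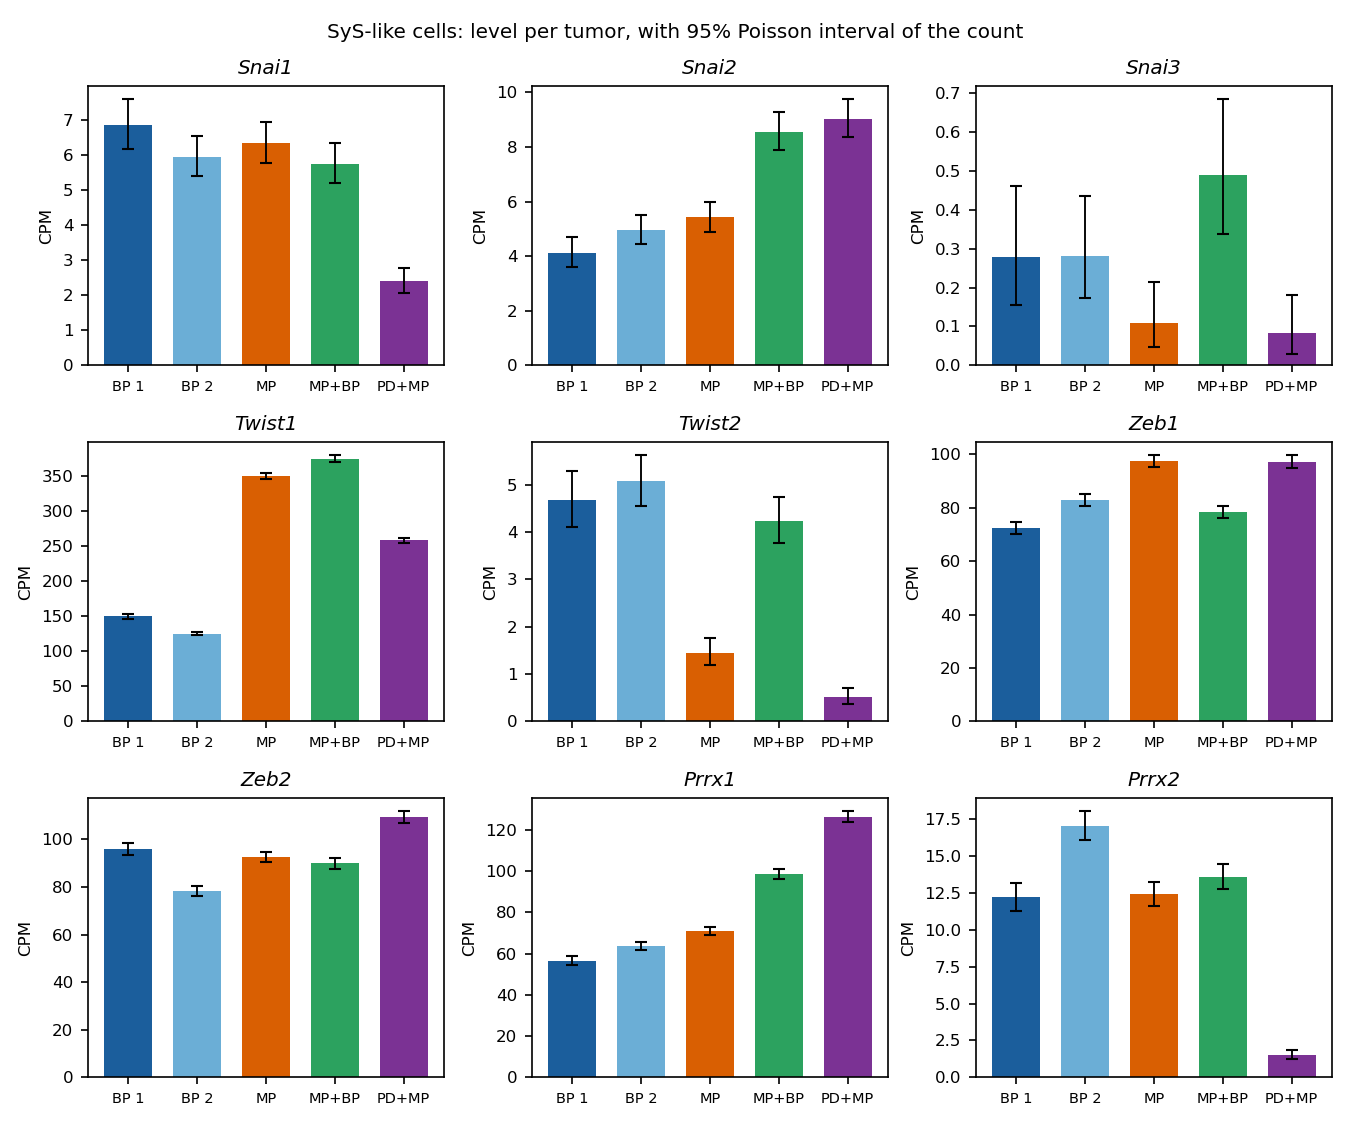
Level of each factor in SyS-like cells as CPM (y axis from 0), 1 bar per tumor, with the exact 95% Poisson interval of its count, which covers counting error only. *Prrx1* runs from 56.6 CPM in BP 1 to 126 CPM in PD+MP, whereas *Prrx2*, *Twist2* and *Snai1* are lowest in PD+MP.

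Across tumor labels, no factor differed between the 3 tumors with BP in the label and the 2 without it at the threshold. This comparison asked whether the label that marks glandular histology went with less of these mesenchymal factors in SyS-like cells. edgeR called 0% of 20788 genes higher and 0% lower, with 2115 genes at an unadjusted p under 0.05 and 516 genes called by DESeq2. Of the members, *Twist2* was 4.65 ± 0.419 CPM (SD, n = 3) on the BP side and 0.982 ± 0.666 CPM (SD, n = 2) on the other, without overlap (log2 change 2.15, SE 0.53, unadjusted p = 0.00693, adjusted p = 0.467 by edgeR and 0.00352 by DESeq2). *Snai3* had an unadjusted p of 0.0233 on 8 to 34 UMIs in 4 tumors and 6 UMIs in PD+MP. *Twist1* was 217 ± 138 CPM (SD, n = 3) against 305 ± 64.9 CPM (SD, n = 2) with overlap, since MP+BP was the highest and both BP tumors were the lowest. *Prrx1* was 73.0 ± 22.6 CPM (SD, n = 3) against 98.7 ± 39.2 CPM (SD, n = 2), again with overlap. Without MP, *Twist2* and *Prrx2* had adjusted p-values of 0.0402 and 0.0399.

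Apart from the BP tumors, SyS-like cells of the tumors fell largely into different clusters, so a label comparison also compares clusters. In PD+MP they sat mostly in clusters led by *Xkr4*, *Gm26917*, *Gap43* and *Ccnb1*, in MP in those led by *Kcnk2* and *Luzp2*, in MP+BP in those led by *Bdnf* and *Pcp4*, and in BP 2 in those led by *Hpse2* and *Meioc*. The *Hpse2* cluster also held 1511 of the 2696 SyS-like cells of BP 1. The 4 clusters with 98.8% to 100% PD+MP cells held 0.931 to 2.95 CPM of *Prrx2* and 0.241 to 0.328 CPM of *Twist2*.

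Within SyS-like cells, *Prrx1*, *Snai2* and *Twist2* were highest in the same pair of clusters. Over the 15 SyS-like clusters *Prrx1* ran from 20.3 CPM in the cluster led by *B530045E10Rik* to 474 CPM in that led by *Mgp*, with 280 CPM in that led by *Bdnf* and a median of 61.8 CPM. The *Mgp* cluster was also the highest for *Snai2* (23.4 CPM), *Twist1* (483 CPM), *Prrx2* (49.5 CPM) and *Snai3* (1.49 CPM), and the *Bdnf* cluster for *Twist2* (14.3 CPM). *Zeb1* and *Zeb2* varied least, from 49.9 to 136 CPM and from 62.4 to 135 CPM. *Snai1* peaked at 8.92 CPM in the cluster led by the mitotic gene *Cdc20*. These are descriptions, since clusters are drawn from the same cells.

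**Figure D3:**
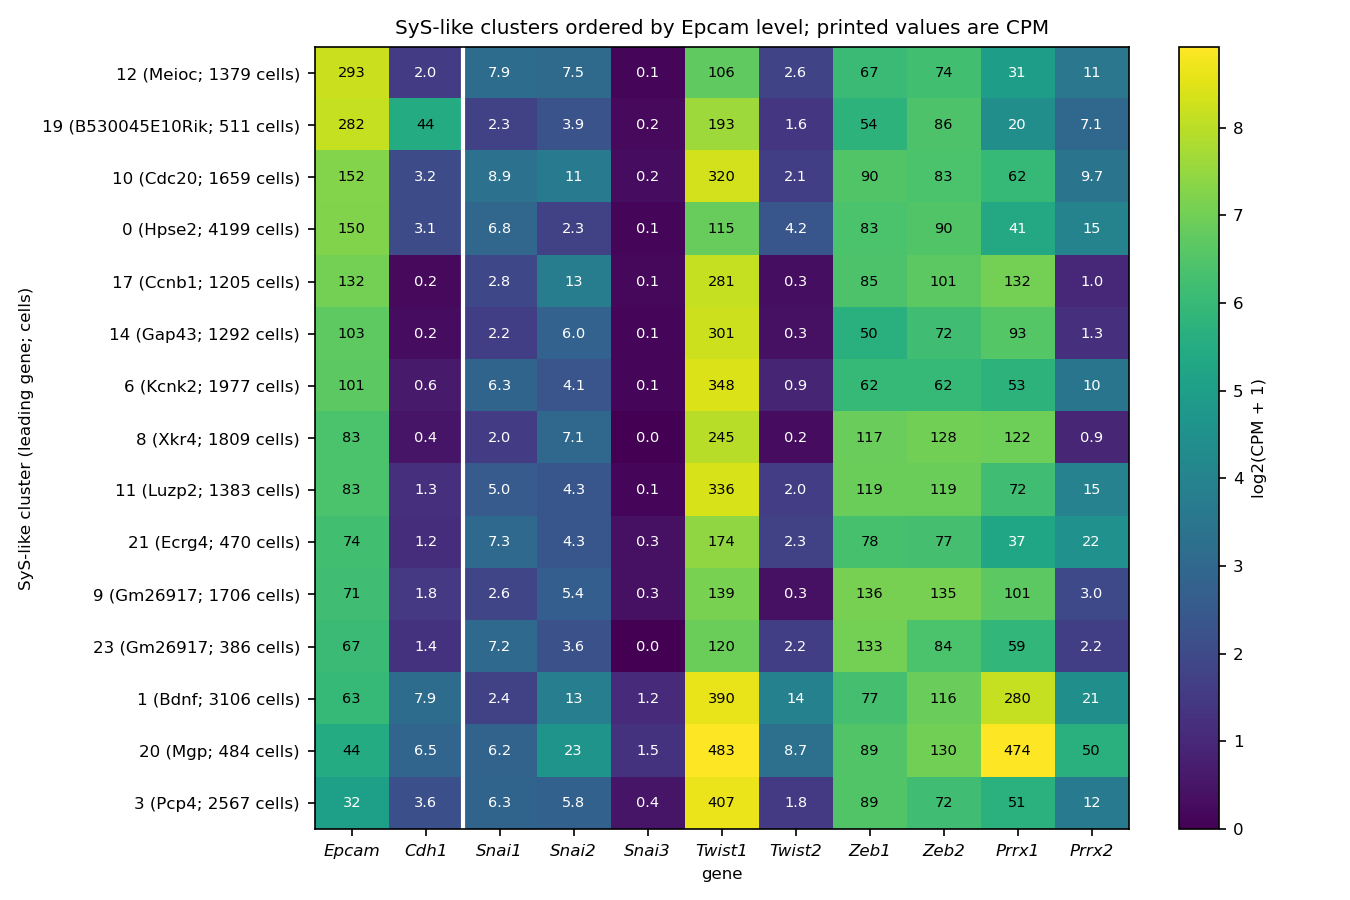
Heat map of the 15 SyS-like clusters (rows, ordered by *Epcam*, with leading gene and cell number) for *Epcam*, *Cdh1* and the 9 factors (columns). Color is log2(CPM + 1) and the printed values are CPM, with *Prrx1* highest in the *Mgp* and *Bdnf* rows, which are among the 3 lowest for *Epcam*.

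The *Prrx1* level of the *Bdnf* cluster was high in every tumor. In the *Bdnf* cluster *Prrx1* stood at 454, 512, 323, 207 and 523 CPM in BP 1, BP 2, MP, MP+BP and PD+MP, each above the whole SyS-like level of its tumor (113 to 2202 cells). Together both clusters held 14.9% of SyS-like cells and 8.52% of their UMIs, but 30.9% of their *Prrx1*, 37.3% of their *Twist2* and 19.1% of their *Snai2* UMIs. In MP+BP they made up 42.8% of SyS-like cells and 67.4% of *Prrx1* UMIs, and in MP 2.83% and 5.51%. Their EGFP level, 36.7 CPM for *Bdnf* and 35.8 CPM for *Mgp*, was near the median of the SyS-like clusters (35.7 CPM). The summed fibroblast markers stood at 1062 and 1682 CPM there, against 43.1 to 202 CPM in the other 13 SyS-like clusters and 31052 CPM in fibroblast-like cells. The part of these markers in the *Prrx1* level was not tested. At the other end, the *B530045E10Rik* cluster, 78.1% of which came from BP 1, held 282 CPM of *Epcam*, 44.3 CPM of *Cdh1* and the least *Prrx1*.

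SyS-like cells with at least 1 *Epcam* UMI had lower *Prrx1*, *Twist2* and *Zeb1* levels than those with none, as a share of UMIs and not as an amount per cell. This was the direction of 3 of the 9 members at the threshold, and none was higher, where 4.76% of 20048 genes were called lower and 6.02% higher (55.9% of calls higher, 67.7% without scaling). *Epcam* chose the cells and was not tested. Positive cells numbered 1837, 2960, 2450, 1199 and 2790 in BP 1, BP 2, MP, MP+BP and PD+MP, and negative ones 859, 1798, 1936, 4602 and 3702. Positive cells were deeper in every tumor, with median depths of 12191 to 17809 UMIs against 5954.5 to 10065, and a shallow cell can miss *Epcam*, so each tumor was also compared after thinning.

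*Prrx1* stood at 46.1, 36.0, 65.5, 68.2 and 124 CPM in *Epcam*-positive cells of BP 1, BP 2, MP, MP+BP and PD+MP. In *Epcam*-negative cells it stood at 104, 150, 83.9, 115 and 131 CPM. All 5 tumors were lower in positive cells, widely so in both BP tumors and barely in PD+MP. The change was -0.89 on the log2 scale (SE 0.23, adjusted p = 0.0377), and -0.74 with each cell thinned to 3000 UMIs (adjusted p = 0.00214). *Twist2* held 4.32, 3.37, 1.49, 2.41 and 0.223 CPM in positive and 6.23, 10.4, 1.37, 5.17 and 0.982 CPM in negative cells. It was lower in 4 of 5 tumors, with MP the exception, and changed by -1.03 (SE 0.24, adjusted p = 0.0263). Thinned, its change of -1.04 no longer passed (adjusted p = 0.0715).

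*Zeb1* differed by little, with 70.7, 80.0, 98.0, 64.9 and 94.1 CPM in positive and 80.2, 91.8, 95.6, 85.4 and 102 CPM in negative cells of BP 1, BP 2, MP, MP+BP and PD+MP. It was lower in 4 of 5 tumors (-0.20, SE 0.05, adjusted p = 0.0441), and by -0.38 after thinning (adjusted p = 0.00589). *Twist1* missed the threshold (-0.32, SE 0.10, adjusted p = 0.0613) and passed it after thinning (-0.25, adjusted p = 0.0221). *Snai2* (-0.44, SE 0.16, adjusted p = 0.105), *Prrx2* (-0.35, SE 0.16, adjusted p = 0.193) and *Zeb2* (-0.10, SE 0.05, adjusted p = 0.203) did not pass, and *Snai1* and *Snai3* lay at 0.04 and -0.05.

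**Figure D4:**
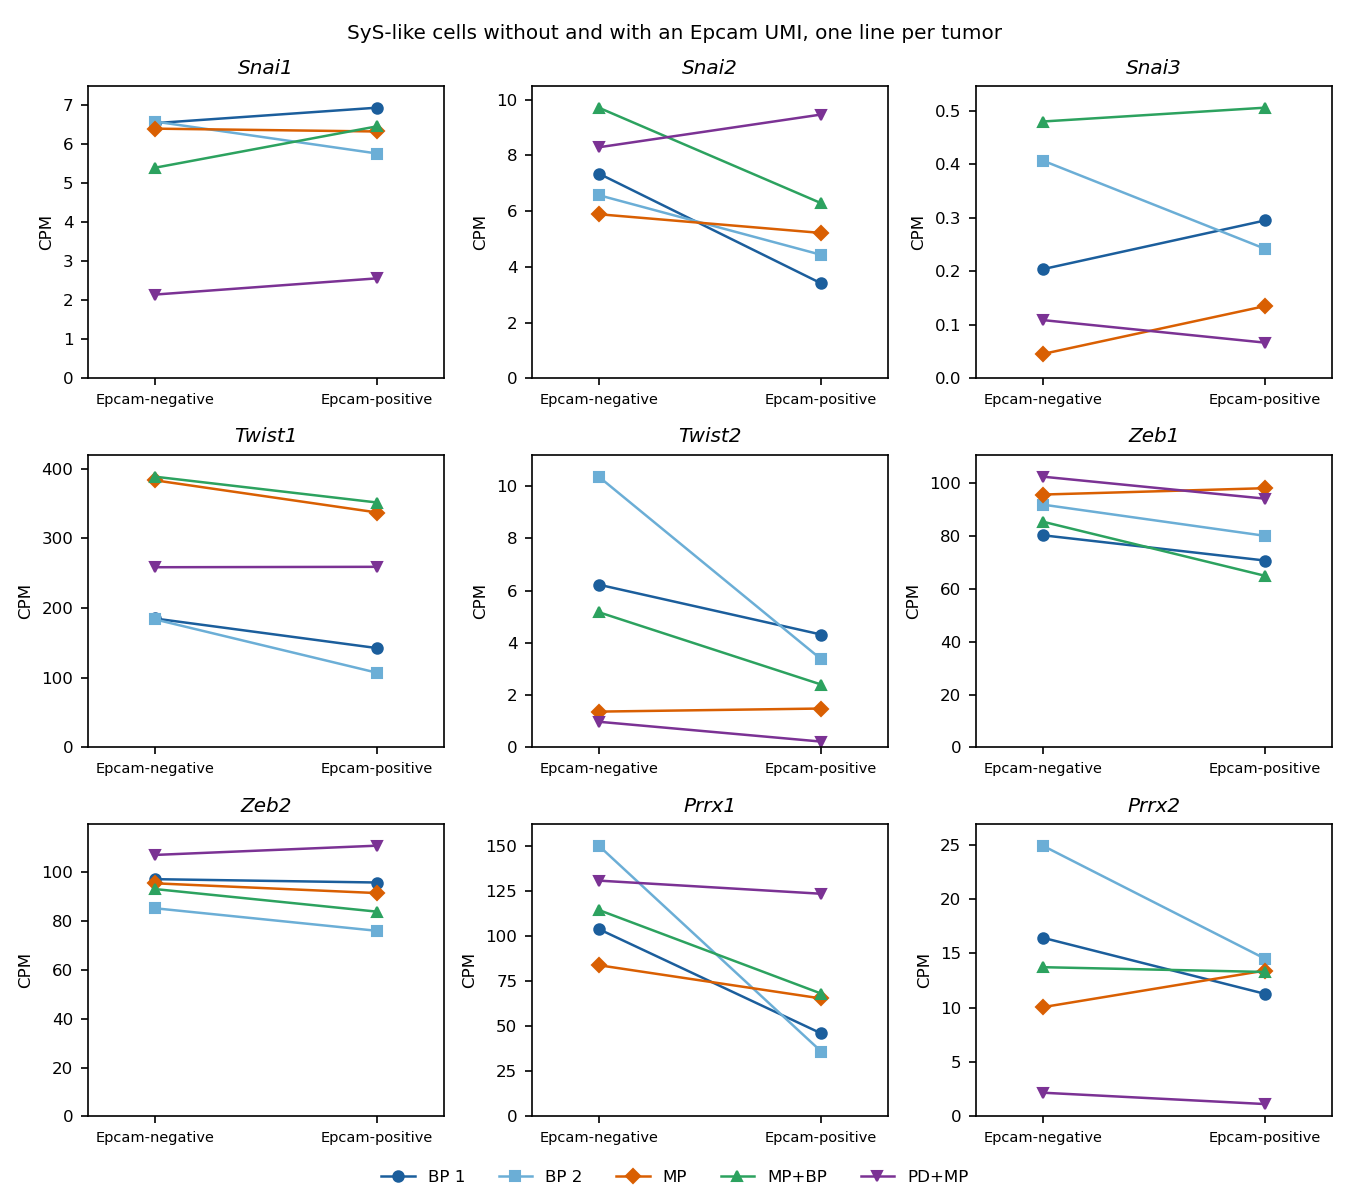
Level of each factor as CPM (y axis from 0) in *Epcam*-negative and *Epcam*-positive SyS-like cells, with a line joining both values of each tumor. All 5 *Prrx1* lines fall, most steeply in BP 2 (150 to 36.0 CPM), while *Snai1* lines run both ways.

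The clusters differed in their share of *Epcam*-positive cells. The *Bdnf* and *Mgp* clusters had 15.4% and 17.8% *Epcam*-positive cells, against 85.9% in the *Meioc* cluster and 70.6% in the *B530045E10Rik* cluster. The split was repeated within each cluster and tumor that had at least 100 cells of both kinds, which gave 15 pairs. Within them *Prrx1* was lower in positive cells in 13 pairs, with a median log2 ratio of -0.28, and *Twist1* likewise in 13 pairs, with a median of -0.16. *Twist2* was lower in only 5 pairs and higher in 10, with a median of 0.24. *Zeb1* was lower in 9 and higher in 6. These counts are a description, since cells of 1 tumor share their source.

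**Figure D5:**
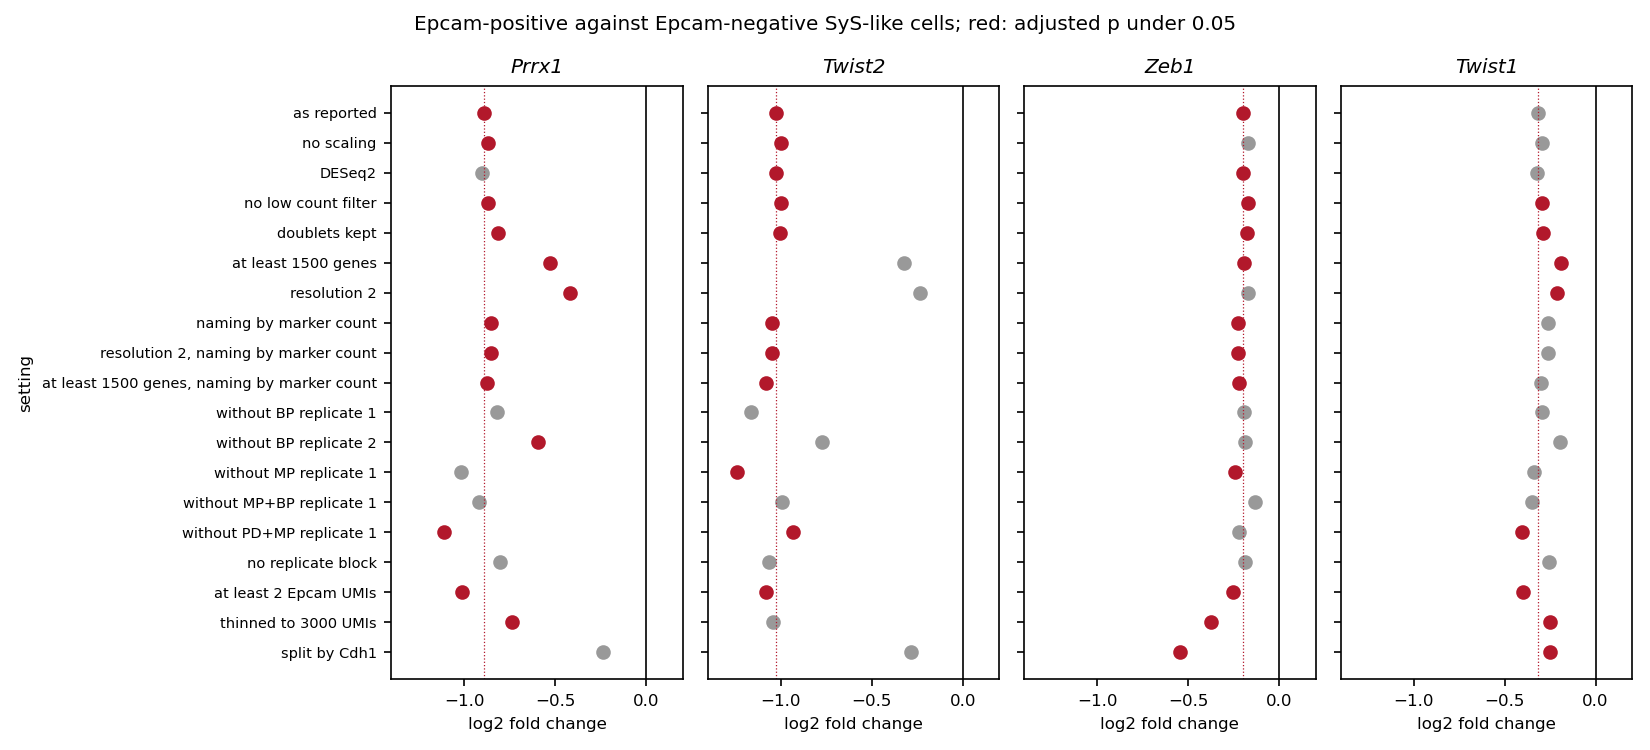
Log2 change of *Prrx1*, *Twist2*, *Zeb1* and *Twist1* between *Epcam*-positive and *Epcam*-negative cells (x axis) under each setting (rows), with the reported value as a dotted line and red for an adjusted p under 0.05. Every point lies below 0, and the *Prrx1* and *Twist2* points move toward 0 where cells need 1500 genes, at resolution 2 and when cells are split by *Cdh1*.

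The sizes for *Prrx1* and *Twist2* changed with which clusters were named. At resolution 2 the changes were -0.42 and -0.23, and with at least 1500 genes per cell -0.53 and -0.32. Of the *Bdnf* cluster's cells, 99.3% of 3106 and 53.4% of 2697 lay in unnamed clusters in these settings. With clusters named by marker count alone, the same settings gave -0.85 and -1.05 at resolution 2, and -0.88 and -1.08 with 1500 genes. No member passed without the tumor as a block, and none passed without BP 1 or without MP+BP. DESeq2 gave *Prrx1* an adjusted p of 0.0521. Split by *Cdh1* instead of *Epcam*, *Zeb1* changed by -0.54 (adjusted p = 0.0036), while *Prrx1* changed by -0.24 (adjusted p = 0.166).

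The *Epcam* difference was not shown to depend on the label. Between the 3 tumors with BP in the label and the 2 without, edgeR called 0% of 20048 genes in either direction, with 974 genes at an unadjusted p under 0.05 and 2 genes called by DESeq2. *Prrx1* had the largest interaction among members with an unadjusted p under 0.05 (-1.12, SE 0.31, adjusted p = 0.989 by edgeR's quasi-likelihood test, unadjusted 0.00564), followed by *Snai2* (-0.77, SE 0.22, unadjusted p = 0.00688) and *Zeb1* (-0.22, SE 0.09, unadjusted p = 0.0275). The log2 ratio of *Prrx1* was -1.18, -2.06 and -0.75 in BP 1, BP 2 and MP+BP, and -0.36 and -0.08 in MP and PD+MP. Each ratio on the BP side was thus lower than both others.

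The list of 20 epithelial genes was counted in the same comparisons. Of its 18 tested genes, 10 were higher and 0 lower in *Epcam*-positive cells, with a median log2 change of 0.85 against -0.002 over all genes. The leading ones were *Rab25* (3.66, SE 0.40, adjusted p = 0.00252), the keratin *Krt8* (1.57, SE 0.25, adjusted p = 0.00777), the splicing factor *Esrp1* (0.98, SE 0.17, adjusted p = 0.0106) and the protease *St14* (0.71, SE 0.13, adjusted p = 0.0134). *Cdh1* was higher by 1.90 (SE 0.39, adjusted p = 0.0189), from 1.52 ± 1.09 to 6.90 ± 8.26 CPM (SD, n = 5), with 11.3 and 19.4 CPM in BP 1 and MP+BP and at most 2.59 CPM in the other 3. SyS-like cells had 12 of 18 tested genes above stroma and 0 below (median 2.71 against 0.17 over all genes), led by *Epcam* (3.79, SE 0.30), *Cldn3* (3.35, SE 0.37), *Spint1* (4.43, SE 0.67) and *St14* (2.42, SE 0.39), with adjusted p-values from 3.58e-05 to 0.00185. Against endothelial-like cells 16 of 19 were higher and 0 lower (median 3.90), and against macrophage-like cells 16 of 18 and 0 (median 3.68), where most members were higher too. Over all genes the shares called higher were 6.02%, 15%, 30.4% and 35.2%, in the order of these comparisons.

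The list of 20 mesenchymal genes went the same way as the called factors in the *Epcam* split. In *Epcam*-positive cells 7 of 20 genes were lower and 0 higher, with a median of -0.38, led by the cadherin *Cdh11* (-0.42, SE 0.04, adjusted p = 0.002), the matrix genes *Postn* (-1.54, SE 0.24, adjusted p = 0.00669) and *Tnc* (-0.53, SE 0.09, adjusted p = 0.00909), and the collagen *Col5a2* (-1.16, SE 0.19, adjusted p = 0.00844). Against stroma 14 of 20 were lower and 1, the adhesion gene *Ncam1*, higher (2.50, SE 0.41), with a median of -2.85, led by *Thy1* (-8.92, SE 0.29). Against endothelial-like cells 7 were higher and 8 lower, beside 30.4% and 22.1% of all genes, with the neural cadherin *Cdh2* higher by 3.35 (SE 0.20, adjusted p = 5.71e-07) and *Sparc* lower by 3.42 (log2 change -3.42, SE 0.17, adjusted p = 1.53e-07). Against macrophage-like cells 10 were higher and 4 lower, beside 35.2% and 23.2% of all genes. For higher and lower genes these shares were 6.02% and 4.76% in the *Epcam* split and 15% and 12.1% against stroma.

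The partners of these factors include the E proteins *Tcf3*, *Tcf4* and *Tcf12*, which pair with Twist, the Id proteins, which block that pairing, and corepressors that Snail and Zeb recruit. Among 15 such genes, 4 were higher and 2 lower in *Epcam*-positive cells, beside 6.02% and 4.76% of all genes. The counts were 4 and 3 against both stroma and endothelial-like cells, and 10 and 2 against macrophage-like cells. Of all genes, 15% and 12.1% were called higher and lower against stroma, and 30.4% and 22.1% against endothelial-like cells. The shares against macrophage-like cells were 35.2% and 23.2%. *Tcf4* was lower (-0.71, SE 0.13, adjusted p = 0.0122), *Tcf3* higher (0.18, SE 0.04, adjusted p = 0.0214), *Id3* lower (-0.67, SE 0.06, adjusted p = 0.00155) and the corepressor *Rcor1* higher (0.23, SE 0.03, adjusted p = 0.00672). *Ctbp1* (0.16) and *Hdac1* (0.14) were the other two that were higher. Against stroma *Id2*, *Id4*, *Tcf3* and *Ctbp2* were higher and *Tcf4*, *Id3* and *Ajuba* lower, with *Id2* higher by 2.61 (SE 0.30, adjusted p = 0.0003), and *Tcf4*, lower (-1.51, SE 0.23, adjusted p = 0.0014). *Tcf4* thus went the same way as *Zeb1* and *Prrx1* in both comparisons.

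TGF-β signaling is a known inducer of these factors. Of 11 of its genes, 0 were higher and 3 lower against stroma, beside 15% and 12.1% of all genes. Those lower were the receptors *Tgfbr1* (-1.10, SE 0.15, adjusted p = 0.000708) and *Tgfbr2* (-2.35, SE 0.57, adjusted p = 0.0145) and the ligand *Tgfb1* (-1.30, SE 0.20, adjusted p = 0.00136). In *Epcam*-positive cells 0 were higher and 1 lower, the ligand *Tgfb3* (-0.27, SE 0.06, adjusted p = 0.0202), beside 6.02% and 4.76% of all genes. Against endothelial-like cells 1 was higher (*Tgfb3*) and 4 lower (*Tgfb1*, *Tgfbr1*, *Tgfbr2* and *Smad2*), beside 30.4% and 22.1% of all genes. Against macrophage-like cells 3 were higher (*Tgfb2*, *Tgfb3* and *Tgfbr3*) and 6 lower, beside 35.2% and 23.2%. Between tumor labels no gene of the 4 lists was called, and the largest epithelial change was that of *Cdh1* (3.54, SE 0.72, unadjusted p = 0.00266, adjusted p = 0.467), at 6.74 ± 3.84 CPM (SD, n = 3) against 0.533 ± 0.187 CPM (SD, n = 2). The mesenchymal genes *Cdh11* (2.99, SE 0.62, unadjusted p = 0.00311 by edgeR) and *Mmp2* (2.87, SE 0.50, unadjusted p = 0.00126 by edgeR) were on the same side, without overlap of the groups and with adjusted p-values of 0.467 and 0.457. The median change was 0.71 over the mesenchymal and 1.40 over the epithelial list, against -0.01 over all genes.

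The genes most like each member were found over 36 sums of a class in a tumor, by Pearson's r of log2(CPM + 1). The sums share libraries and class, so r is a description. For *Prrx1* they were *Col5a1* (r = 0.91), *Cacna1c* (0.91) and *Cd248* (0.90), for *Snai2* *Ppic* (0.93), *Timp3* (0.92) and *Sparc* (0.92), and for *Snai1* *Amotl1* (0.93), *Rhoj* (0.93) and *Tnks1bp1* (0.92). For *Twist1* they were *Plce1* (0.92), *Meg3* (0.92) and *Obsl1* (0.90), for *Twist2* *Ccdc3* (0.92), *Gm26911* (0.91) and *Tmem100* (0.91), and for *Prrx2* *Ndn* (0.89), *Fgf18* (0.87) and *Ghr* (0.83). *Zeb1* was near to *Gm10125* (0.89) and *4930523C07Rik* (0.87), and *Zeb2* only to genes of r = 0.79 or less, namely *Tmem273* (0.79), *B3gnt8* (0.79) and *Mitf* (0.76). *Snai3* never reached 10 CPM and was left out.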

How the data were processed

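Tumors were dissociated and libraries were made with Chromium 3′ chemistry. The authors used Cell Ranger 7.2.0, a version their reporting summary also names, with mm10. They deposited filtered matrices of raw UMI counts per gene and cell, 1 tumor each, without normalization or removal of free RNA. The annotation release was not given in the sources used here. Libraries shared 15 to 33 barcodes per pair (at most 0.302% of the smaller). SyS-like sums of both BP tumors were the closest pair (median chi-square per gene 4.62, against 7.98 to 31.3 for other pairs) but differed beyond counting noise, so they do not hold the counts of 1 library. They were counted as 2 samples, and whether they are independent is not shown. The members and gene lists were chosen with earlier results of these data known.

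Cells were kept with at least 750 genes and at most 25% mitochondrial UMIs. Since Scrublet's own threshold marked only 2 cells of PD+MP, the top scores up to the expected share (5.35% to 8.27%) were removed as doublets. Pearson residuals of 3000 genes, without members, list genes or EGFP, gave 30 components, a graph of 20 neighbors and Leiden clusters (leidenalg 0.10.2, resolution 1). Names needed 3 fixed markers and leading genes that did not go against them. A cluster of low depth also stayed unnamed where no marker of its class was among its leading genes. This depth rule left clusters of 2099 and 1304 cells with SyS markers unnamed, at 0.328 and 0.319 of their tumors' median UMIs. Clusters at 0.361 and 0.348 were kept as SyS-like. Clusters were rebuilt here and can differ from the study's.

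For each tumor, the raw counts of a class were added up. The sums of all genes entered the quasi-likelihood test of edgeR 4.0.16 with TMM factors, filterByExpr and Benjamini-Hochberg adjustment. The procedure was run on simulated data for the SyS-like against stromal pairs only, with the outcome not reported here. The label comparison, the *Epcam* split and its difference by side were not simulated. Alternatives were DESeq2 1.42.0, no scaling, no filter, each tumor left out, pericyte-like cells alone, the 2 BP tumors against the other 3, doublets kept, at least 1500 genes, resolution 2, no block, and, for *Epcam*, 2 UMIs, thinning to 3000 UMIs or *Cdh1*. Naming by marker count, also at resolution 2 and 1500 genes, was added after seeing the data. Named genes were the members, up to 4 per list and comparison with the smallest adjusted p among those called or the largest change where none was, and 3 most like each member. Only the leading genes of clusters, *Crb3* and *Sparc* (motif search) and the order of examples were chosen after their values were seen. Some genes that this rule names are not reported here.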

Additional observations from a re-analysis of the deposited data

Results flagged for a closer look

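Some clusters that carried SyS markers but stayed unnamed, and so entered no comparison, held more of a factor than the highest SyS-like tumor did. In the unnamed cluster led by *Sst* (394 cells, 64.7% from BP 2) *Prrx1* stood at 566 CPM against at most 126 CPM, *Twist1* at 421 against 376, and *Twist2* at 39.3 against 5.07. *Prrx2* stood at 22.2 CPM there against 17.0, *Snai2* at 16.4 against 9.02 and *Snai3* at 2.37 against 0.489. A second unnamed cluster of 1304 cells held 6.52 CPM of *Twist2* and 125 CPM of *Zeb1*, and another of 2099 cells with few UMIs each, held 152 CPM of *Zeb1*, against at most 97.3 CPM in a SyS-like tumor. The largest unnamed cluster with SyS markers, led by *En1* (2802 cells, 66.7% from BP 2), went the other way. *Zeb1* stood at 43.1 CPM there against at least 72.4 CPM in a SyS-like tumor, and *Prrx1* at 30.3 against at least 56.6. *Snai2*, *Twist1* and *Zeb2* were also below every SyS-like tumor there, and no factor was above the highest one. These levels are clusters' sums with no test. The cells left out were spread unequally over tumors. With naming by marker count alone, SyS-like cells went from 2696 to 4267 in BP 1 and from 4758 to 7693 in BP 2. In MP they went from 4386 to 5252, in MP+BP from 5801 to 7017 and in PD+MP from 6492 to 6503.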

How the results depend on the processing

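Over all alternatives, 753 of the member values kept their direction and side of the threshold, 20 gained a call, 24 lost one and 33 turned sign. The cause was not tested. Leaving out 1 tumor gave 3616 to 6203 called genes against stroma, 3 to 4 members higher than in endothelial-like cells (*Twist2* lost without BP 1 or BP 2), 0 to 635 for the BP side with 0 to 2 members higher (*Twist2* and *Prrx2* without MP), 393 to 2001 for *Epcam* with 0 to 4 members lower, and 0 to 20 for the *Epcam* difference by side with 0 to 1 member lower (*Prrx1*, without MP+BP).

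DESeq2 called 516 genes and 1 member for the BP side and 2 genes for the *Epcam* difference by side. The latter had 45 genes and 1 member lower (*Prrx1*) without the filter on low counts and 1 gene with at least 1500 genes per cell. For *Epcam*, thinning left 564 genes and the split by *Cdh1* 1354, against 2161. Both classes or cell kinds compared come from the same tumor, which is the block. Without the replicate block, 0 genes and 0 members were called for *Epcam*, and the only other member call that changed was *Twist2* against stroma (-2.33, adjusted p = 0.0267 by edgeR), which 3 other alternatives also called. No paired analysis was possible because the labels give no replicate numbers that the BP side shares with the other tumors.

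The 33 turned values were log2 changes of genes without a call. Against stroma *Snai3* was -0.23 by DESeq2 and -0.063 with doublets kept, and *Prrx2* -1.19 to 0.027 with 1 tumor left out (positive without PD+MP) and 0.27 with pericyte-like cells alone. For the BP side with 1 tumor left out, *Snai1* was -0.098 (without PD+MP) to 1.23 and *Snai2* -0.753 to 0.053 (without PD+MP). For *Epcam*, *Snai1* was -0.018 at resolution 2, -0.008 to 0.115 with 1 tumor left out (negative without MP+BP or PD+MP), -0.012 thinned and -0.176 split by *Cdh1*, *Snai2* was 0.033 thinned and *Zeb2* 0.002 at resolution 2. There *Snai3* was 0.015 by DESeq2, 0.15 with doublets kept, 0.38 with 1500 genes (0.04 with naming by marker count), 0.20 at resolution 2, -0.204 to 0.193 with 1 tumor left out (positive without BP 2 or PD+MP), 0.09 with 2 *Epcam* UMIs and 0.40 split by *Cdh1*. For the *Epcam* difference by side, *Snai1* was -0.256 to 0.114 with 1 tumor left out (positive without BP 2 or PD+MP) and 0.384 thinned. *Twist2* was 0.21 at resolution 2, -1.191 to 0.952 with 1 tumor left out (positive without MP) and 1.693 thinned, *Snai3* 0.119 at resolution 2 and -1.569 to 0.514 with 1 tumor left out (positive without MP), *Zeb2* 0.053 at resolution 2 and 0.15 thinned, and *Prrx2* -0.831 to 0.428 with 1 tumor left out (positive without MP). *Snai3* rests on 83 UMIs, and 5 tumors with 1 to 2 per label limit every label comparison.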

Other observations

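Immune cells differed in which Zeb gene they carried. T/NK-like cells held 1275 ± 607 CPM of *Zeb1* and 96.4 ± 42.4 CPM of *Zeb2* (SD, n = 5 tumors), whereas macrophage-like cells held 10.8 ± 2.62 CPM of *Zeb1* and 1014 ± 104 CPM of *Zeb2*. Dendritic-like cells lay between, with 230 ± 74.9 CPM of *Zeb1* and 185 ± 51.2 CPM of *Zeb2* (SD, n = 5). The T/NK-like values rest on 34 to 78 cells per tumor and were not tested.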
